A study of Homo sapiens with 16 samples.

Results

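The genes of the potassium, sodium and calcium channels were taken by symbol from the gene counts of corin-treated and vehicle-treated melanoma cells. They are the protein-coding genes whose symbols begin with KCN, CACNA, CACNB or CACNG, or are SCN with a number and A or B. The count table held 131 of them among 34228 genes, of which 18159 were protein-coding. There were 92 potassium, 14 sodium and 25 calcium channel genes. A further 5 genes that meet the rule in GENCODE 44 (CACNG1, KCNA6, KCNG2, KCNMB2 and KCNV2) were not analysed here. The symbols take in more than voltage-gated pores: inward rectifiers (KCNJ), 2-pore channels (KCNK) and auxiliary subunits carry no voltage-gated pore of their own, and calcium- or sodium-gated potassium channels, some of which also sense voltage, were kept as a further separate class.

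The study asked what inhibition of the CoREST repressor complex does to melanoma cells that resist BRAF inhibitors. Corin is a bivalent small molecule that blocks the histone deacetylases HDAC1 and HDAC2 and the demethylase LSD1 of that complex. RNA-Seq was made from 451Lu-R cells, of the differentiated MITF-high/AXL-low type, and 1205Lu-R cells, of the invasive MITF-low/AXL-high type, after 24 h in 2.5 μM corin or in DMSO, with 2 libraries in each of the 4 groups. The titles of these samples lack the -R. They were taken as the resistant lines from their source labels and from the study's methods for RNA-Seq. Both lines had been made resistant with rising doses of the BRAF inhibitor PLX4032 over months and were kept in 5 μM PLX4032 in culture, so all 4 groups share this history. The DMSO and corin arms were given as arms without PLX4032, and how long before treatment it was withdrawn is not stated. Whether the 2 libraries of a group came from separate cultures is not stated, so p-values here measure the spread between these libraries, which may be technical.

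As background, voltage-gated channels open when the membrane depolarizes: sodium channels carry the rising phase of the action potential, calcium channels turn depolarization into a calcium signal, and potassium channels repolarize the cell. Inward rectifiers and 2-pore channels set the resting potential, and auxiliary subunits change how much of a pore reaches the membrane and how it gates. Many of these genes are known for their use in neurons and muscle, and REST, the DNA-binding partner for which CoREST was named, is known to silence neuronal genes in other cells.

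The libraries held between 9516687 and 11797788 estimated counts. The channel genes together took between 0.0490% and 0.106% of them, so most values below rest on few counts. Melanocyte lineage genes summed to between 13650 and 13730 CPM (counts relative to the library total) in 451Lu-R with DMSO and to between 8.29 and 8.56 CPM in 1205Lu-R with DMSO, and TYR and SOX10 were at 0 in both 1205Lu-R DMSO libraries. The invasive-state genes AXL, NGFR, EGFR and WNT5A ran the other way, from 8.02 to 8.07 CPM in 451Lu-R and from 1251 to 1265 CPM in 1205Lu-R. Muscle markers summed to at most 0.873 CPM in any library. Neuronal markers rose with corin in the same libraries as the channel genes. All 7 tested for 451Lu-R rose, and their sum went from between 195.3 and 199.4 to between 797.1 and 798.9 CPM. Most of it was TUBB3, at 193.9 and 198.2 CPM with DMSO, against 678.1 and 676.5 with corin. Only TUBB3 passed the filter on low counts in both groups. RBFOX3, SNAP25, SYT1, STMN2, SYN1 and NEFL passed it only through their corin libraries and so had to be higher with corin. Of 5 tested for 1205Lu-R, 4 rose, and the sum went from between 444.6 and 447.1 to between 1242 and 1271 CPM. SYT1 was tested there only through its corin libraries. Among all genes tested, rises made up 41.3% for 451Lu-R, against 40.4% for 1205Lu-R. Markers of other cell types also went up at lower levels. In 451Lu-R epithelial markers summed to between 3.98 and 4.51 CPM with DMSO, against 13.0 to 13.1 with corin (2 of 2 tested rose), endothelial markers to between 1.35 and 1.47, against 8.39 to 9.10 (1 of 1), and leukocyte markers to between 2.02 and 3.49, against 5.23 to 6.57 (2 of 2). In 1205Lu-R epithelial markers went from between 9.22 and 10.3 to between 24.1 and 24.7 CPM (1 of 1 rose), endothelial markers from between 10.7 and 10.8 to between 24.0 and 27.6 (1 rose and 1 fell of 2), and no leukocyte marker could be tested. The invasive-state genes rose in 451Lu-R, 4 of 4, to between 370.8 and 378.8 CPM, most of it NGFR at 354.7 and 348.1. AXL reached 2.47 and 2.34 CPM there. In 451Lu-R AXL, NGFR, KRT14 and CD14 were also tested only through their corin libraries and so had to be higher with corin. In 1205Lu-R, 3 of the 4 invasive-state genes fell and NGFR rose, and their sum with corin was between 803.1 and 815.5 CPM. Of the 8 melanocyte lineage genes, 7 fell and 1 rose with corin in 451Lu-R, to a sum between 11700 and 11750 CPM. In 1205Lu-R all 3 tested rose, and the sum was between 23.2 and 26.6 CPM. There PMEL and S100B passed the filter only through their corin libraries. The part of these markers in the channel results was not tested.

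In 451Lu-R the summed level of the channel genes went from 502.4 and 490.2 CPM with DMSO to 1061 and 1031 CPM with corin. In 1205Lu-R the sum was already 951.3 and 957.5 CPM with DMSO and was 1019 and 1021 CPM with corin. The sums hide a wider change in which genes were read. Genes with at least 10 counts in both libraries of a group went from 33 to 69 in 451Lu-R and from 38 to 65 in 1205Lu-R. Genes at 0 in both libraries of a group went from 49 to 13 and from 39 to 27. Detection also went up over all genes, here counted at 1 CPM or more per library, a different measure. In 451Lu-R it went from 13104 and 13094 genes with DMSO to 14264 and 14201 with corin. In 1205Lu-R it went from 12867 and 12921 to 14427 and 14380. Over all 8 libraries, 6 of the 131 genes were at 0 throughout (KCNJ1, KCNK16, KCNK18, KCNE2, SCN10A and CACNG3) and 20 never passed 3 counts. In bulk RNA, more cells expressing a gene and more RNA per cell cannot be told apart.

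A gene was said to rise or fall at an adjusted p under 0.05 in edgeR's quasi-likelihood test with Benjamini-Hochberg adjustment over all genes tested. In 451Lu-R, 70 channel genes passed the filter on low counts, of which 57 rose and 7 fell. Over all genes tested, 41.3% rose and 38.6% fell. At a fold of 4 or more with an adjusted p under 0.001, 41 channel genes rose and 1 fell, against 12.4% and 2.72% of all genes. The median log2 fold change was 2.80 for the channel genes and 0.03 for all genes. Of the 70, 36 passed the filter only through their corin libraries and so had to be higher with corin. They include 34 of the 41 rises of 4-fold or more. When the fit was limited to genes that passed in both groups, 21 of 33 channel genes rose and 7 fell, against 39.9% and 39.9% of all such genes. There 8 rose and 1 fell by 4-fold or more, against 4.65% and 1.77% of all, and the median log2 fold change was 1.23 for the channel genes and −0.01 for all.

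In 1205Lu-R, 66 channel genes were tested, of which 47 rose and 9 fell, where 40.4% and 37.8% of all genes did. At a fold of 4 or more, 32 rose and 1 fell, against 11.3% and 1.43% of all genes. The median log2 fold change was 1.92 against 0.03 for all genes. Here 28 passed the filter only through their corin libraries, 24 of the 32 among them. When the fit was limited to genes that passed in both groups, 21 of 37 rose and 8 fell, against 39.5% and 38.6% of all such genes. In that fit 9 rose by 4-fold or more and 0 fell, against 4.49% and 0.877% of all, and the median was 0.79 against 0.01. In both lines together, 56 channel genes were tested in each line, 37 rose in both, 3 fell in both and 8 had opposite calls. No share over all genes is given for these joint calls, so they are not read as more or fewer than usual. Some shared rises, such as that of KCNH5, come from genes that passed the filter only through their corin libraries. There were 51 channel genes tested in neither line.

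**Figure D1:**
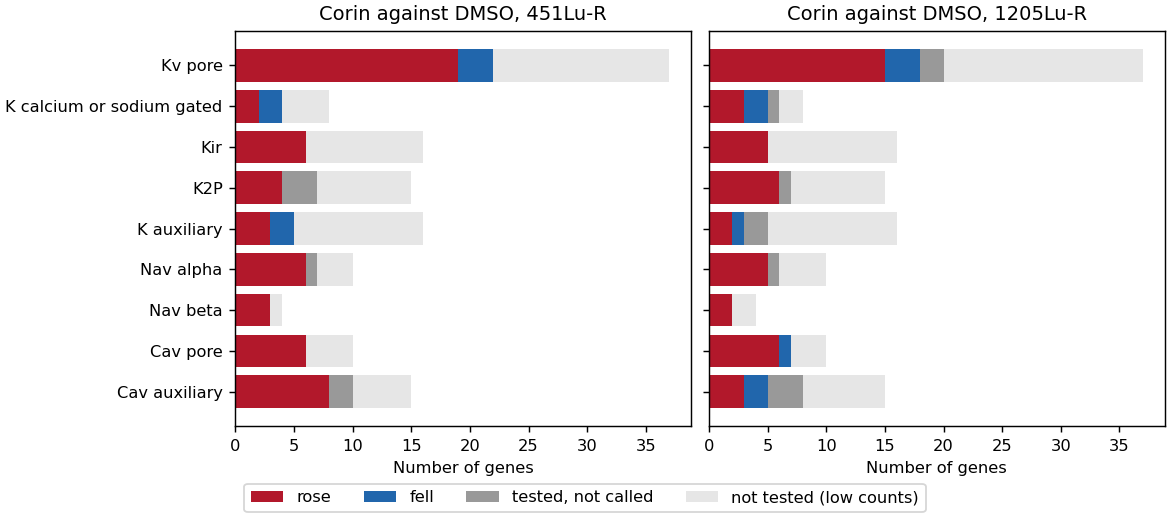
Number of channel genes per class (horizontal axis) that rose, fell, were tested without a call or were not tested for low counts, with corin against DMSO for 451Lu-R on the left and 1205Lu-R on the right. All tested inward rectifiers rose (6 and 5), and the falls lie in the potassium classes and, in 1205Lu-R only, among the calcium channel genes.

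The counts per class include genes that passed the filter only with corin and so had to be higher with it. In 451Lu-R these were 11 of 22 voltage-gated potassium pores, 4 of 7 2-pore channels, 5 of 7 sodium alpha subunits and 7 of 10 calcium auxiliary genes. In 1205Lu-R they were 10 of 20, 4 of 7, 4 of 6 and 2 of 8.

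Among the sodium channels, the pore-forming alpha subunits rose in 6 of 7 tested genes in 451Lu-R and 5 of 6 tested genes in 1205Lu-R. Of these genes, 5 lie together on chromosome 2 (GRCh38, from 165087526 to 166611482, a span of 1524 kb) in the order SCN3A, SCN2A, SCN1A, SCN9A and SCN7A. SCN9A, a sodium channel known from pain-sensing neurons, had 7 and 7 counts in the 451Lu-R DMSO libraries and 960 and 840 with corin, a log2 fold change of 7.00 ± 0.14 (SE) at an edgeR adjusted p of 1.83e-19. In 1205Lu-R it went from 2 and 2 counts to 132 and 162, a ratio of 77.3 with a 95% exact counting interval from 29.9 to 285.5. Such intervals cover counting error only. In both lines every corin library lay far above every DMSO library. SCN9A passed the filter only through its corin libraries in both lines and so had to be higher with corin.

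SCN3A, a brain sodium channel, went from 2 and 6 counts to 160 and 132 in 451Lu-R (log2 fold change 5.16 ± 0.29). In 1205Lu-R it went from 1 and 0 counts to 12 and 12. SCN1A, another channel of central neurons, went from 0 and 1 counts to 36 and 35 in 451Lu-R and from 0 and 1 to 17 and 14 in 1205Lu-R. SCN7A, an atypical channel known as a sodium sensor, went from 5 and 0 counts to 17 and 12 and from 1 and 1 to 22 and 29. All 3 rose in both lines, with edgeR adjusted p from 2.39e-12 to 0.00197 over the 6 tests. As with SCN9A, all 6 tests were possible only through the corin libraries, so their direction was fixed. SCN2A, which lies between SCN3A and SCN1A, did not pass the test in 451Lu-R, where counts were 36 and 32 with DMSO, against 34 and 22 with corin (log2 fold change −0.27 ± 0.27, edgeR adjusted p = 0.374). In 1205Lu-R its counts of 17 and 9 against 8 and 10 were too low to be tested. Exons of SCN9A and SCN1A overlap SCN1A-AS1 on the opposite strand, and exons of SCN3A overlap the gene ENSG00000236283. Whether the library preparation kept the strand is not stated, so reads of such pairs may not be told apart.

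**Figure D2:**
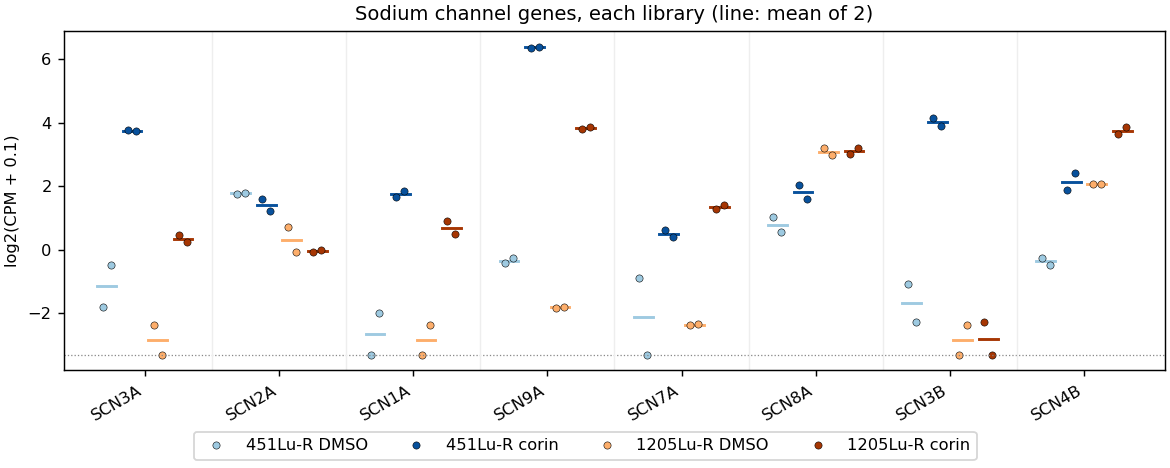
Level of 8 sodium channel genes as log2(CPM + 0.1) in each of the 8 libraries (points) with the mean of the 2 libraries of a group (lines); the dotted line is a count of 0. SCN9A has the widest gap between DMSO and corin in both lines, SCN2A and SCN8A overlap between treatments in 1205Lu-R, and SCN3B is high only in the 451Lu-R corin libraries.

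Outside that cluster, SCN8A, a channel of the axon initial segment, rose in 451Lu-R from 21 and 13 counts to 47 and 29 (log2 fold change 1.17 ± 0.31). Without corin replicate 1 it was 0.91 at an edgeR adjusted p of 0.0785. In 1205Lu-R it started higher, at 100 and 82 counts, and had 75 and 100 with corin, which overlap. The difference between the lines in the SCN8A response was −1.26 ± 0.34 on the log2 scale (interaction term, edgeR adjusted p = 0.00408). SCN4A, SCN10A and SCN11A had at most 8 counts in any library.

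Beta subunits are single-pass proteins that bind the alpha subunits. SCN3B went from 4 and 1 counts to 208 and 148 in 451Lu-R (log2 fold change 6.10 ± 0.30, edgeR adjusted p = 3.49e-13). In 1205Lu-R it had at most 1 count in any library. SCN4B rose in both lines, from 8 and 6 counts to 42 and 52 and from 45 and 43 to 118 and 160. In 451Lu-R SCN3B and SCN4B passed the filter only through their corin libraries and so had to be higher with corin. SCN2B had at most 1 count in any library.

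Of the voltage-gated potassium pore genes, 19 of 22 tested rose and 3 fell in 451Lu-R, with 15 rises and 3 falls among 20 in 1205Lu-R. KCNQ3, a subunit of the neuronal M current, a slow potassium current that damps firing, went from 0 and 2 counts to 98 and 109 in 451Lu-R and from 56 and 50 to 198 and 244 in 1205Lu-R. KCNQ5, another subunit of this family, fell in both lines, from 464 and 387 counts to 205 and 162 (log2 fold change −1.20 ± 0.08) and from 112 and 130 to 71 and 106. The fall in 1205Lu-R was small against the spread (log2 fold change −0.45 ± 0.15, edgeR adjusted p = 0.0103), and DESeq2 gave an adjusted p of 0.126. It was −0.33 (edgeR adjusted p = 0.0897) without DMSO replicate 2 and −0.30 (0.101) without corin replicate 1.

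Among the ether-a-go-go family, KCNH2 and KCNH5 were read almost only with corin. KCNH2, the cardiac repolarizing channel, was at 0 in both 451Lu-R DMSO libraries and had 112 and 85 counts with corin, at least 31.0-fold higher against a floor of 3 counts per library. In 1205Lu-R it had 3 and 4 counts with corin after 0 and 0, too few to be tested. KCNH5 was at 0 in all 4 DMSO libraries and had 36 and 33 counts in 451Lu-R against 70 and 88 in 1205Lu-R with corin, at least 10.8-fold and 27.7-fold higher. The fitted log2 fold changes of genes at 0 depend on the prior count and are no measure of size.

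KCNB2 and KCNC1, pores of delayed rectifier currents, rose from at most 3 counts and at most 7 counts per DMSO library. KCNB2 had 43 and 31 counts with corin in 451Lu-R, against 25 and 25 in 1205Lu-R. KCNC1 had 61 and 37 counts with corin in 451Lu-R, against 120 and 139 in 1205Lu-R. KCNF1 and KCNV1 form no channel alone and modify other pores. KCNF1 rose in both lines, with 20 and 12 counts with corin in 451Lu-R, against 31 and 38 in 1205Lu-R. KCNV1 went from 0 and 1 counts to 126 and 92 in 451Lu-R, a ratio of 205.7 with a counting interval from 36.5 to 8160, and in 1205Lu-R had 9 and 8 counts with corin. The modifier KCNS3 was read in every library and rose in both lines, from 216 and 201 counts to 773 and 677 and from 292 and 303 to 606 and 661.

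**Figure D3:**
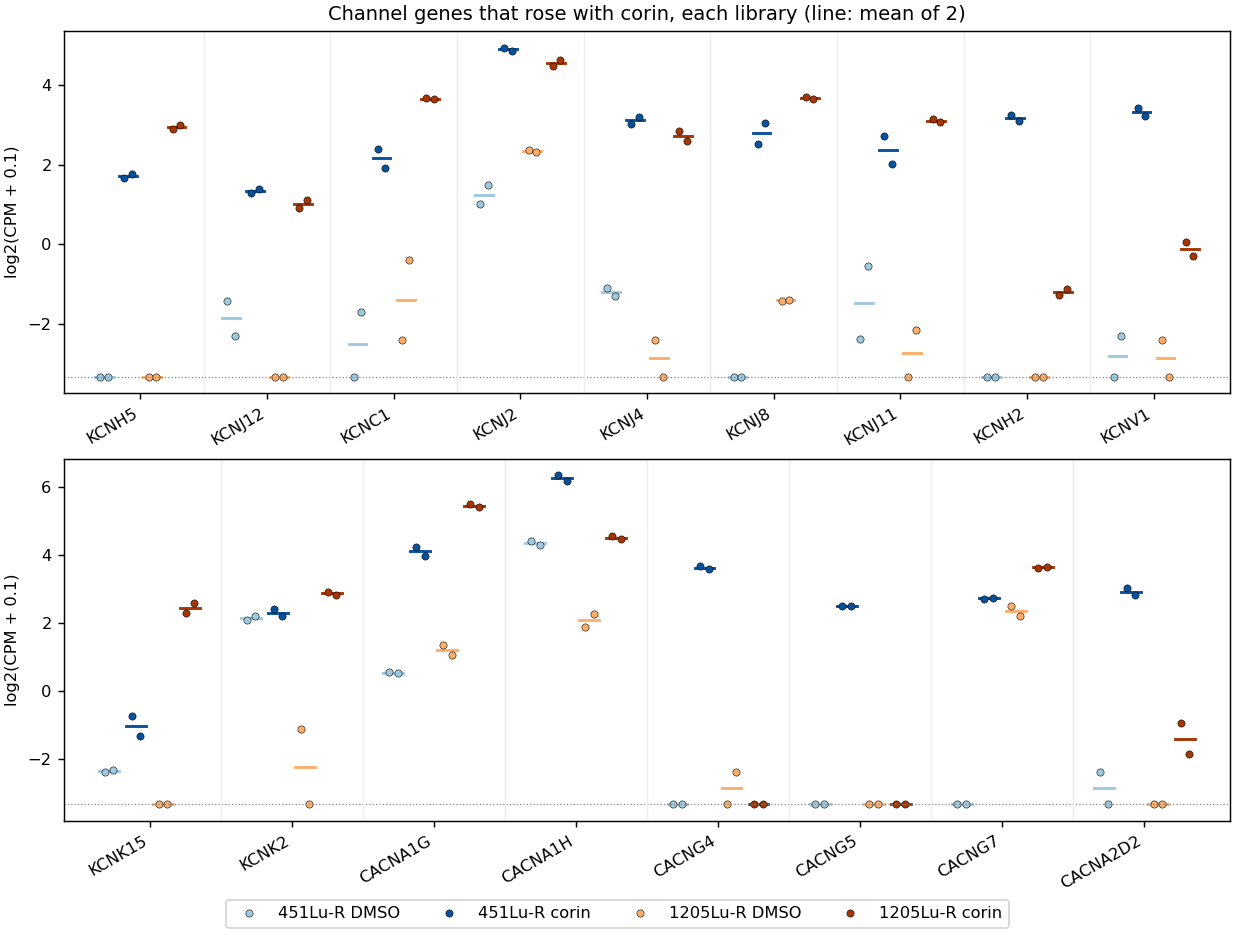
Level of 17 channel genes as log2(CPM + 0.1) in each of the 8 libraries (points) with the mean of the 2 libraries of a group (lines); the dotted line is a count of 0. KCNH5 and KCNJ8 leave a count of 0 with corin in 451Lu-R, while CACNG4 and CACNG5 do so in 451Lu-R and stay at 0 with corin in 1205Lu-R.

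All tested inward rectifiers rose, 6 in 451Lu-R as well as 5 in 1205Lu-R, but 4 in each line passed the filter only with corin and so had to be higher with it. KCNJ8 and KCNJ11 encode the pores of ATP-sensitive potassium channels, which couple metabolism to membrane potential. KCNJ8 went from 0 and 0 counts to 67 and 82 in 451Lu-R, at least 23.4-fold higher, and from 3 and 3 to 122 and 139 in 1205Lu-R, a ratio of 45.7 with a counting interval from 20.7 to 125.8. KCNJ11 went from 1 and 6 counts to 77 and 40 in 451Lu-R and from 0 and 1 to 83 and 92 in 1205Lu-R. KCNJ2, KCNJ4 and KCNJ12 are strong rectifiers that hold the resting potential near that of potassium. KCNJ2 went from 21 and 26 counts to 361 and 288 (log2 fold change 3.79 ± 0.15) and from 56 and 52 to 213 and 276 (2.17 ± 0.13), and its response was smaller in 1205Lu-R (difference −1.66 ± 0.24, interaction, edgeR adjusted p = 5.01e-06).

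KCNJ4 went from 4 and 3 counts to 95 and 91 in 451Lu-R and from 1 and 0 to 68 and 66 in 1205Lu-R. KCNJ12 went from 3 and 1 counts to 28 and 25 and from 0 and 0 to 17 and 23. KCNJ12 and KCNJ18 are near-identical copies, so reads may have been split between them, and KCNJ18 had at most 4 counts in any library. KCNJ10, the glial potassium buffering channel, was read in 451Lu-R, where it went from 42 and 72 counts to 207 and 167, and had at most 3 counts in any 1205Lu-R library. The other 9 inward rectifier genes were left out of both corin tests by the filter, with at most 19 counts in any library.

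Among the 2-pore channels, which carry background potassium current, 4 of 7 tested rose in 451Lu-R, with 6 rises among 7 in 1205Lu-R and no fall in either. KCNK2, a mechanically gated channel, had 45 and 44 counts with DMSO in 451Lu-R, against 61 and 45 with corin, where it did not pass the test (edgeR adjusted p = 0.271). In 1205Lu-R it went from 4 and 0 counts to 70 and 78, and the responses differed by 4.82 ± 0.55 on the log2 scale (interaction, edgeR adjusted p = 1.96e-07). Without 1205Lu-R DMSO replicate 1 that difference was 8.93. KCNK15 was at 0 in both 1205Lu-R DMSO libraries and had 46 and 66 counts with corin, at least 19.6-fold higher, and it had at most 6 counts in any 451Lu-R library. Exons of KCNK15 overlap KCNK15-AS1 and RIMS4 on the opposite strand. The acid-sensitive channel KCNK9 rose in both lines, from 3 and 5 counts to 54 and 32 and from 22 and 18 to 88 and 106, as did KCNK5, from 4 and 11 to 52 and 42 and from 100 and 82 to 154 and 189.

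Among the calcium-gated potassium channels, KCNMA1 encodes the BK channel, which opens to calcium and depolarization together. In 1205Lu-R it went from 2877 and 2721 counts to 1200 and 1350 (log2 fold change −1.13 ± 0.04, edgeR adjusted p = 1.2e-17). In 451Lu-R it went from 230 and 207 counts to 69 and 63, a log2 fold change of −1.71 ± 0.13. KCNN4, the intermediate-conductance channel of lymphocytes and red cells, went from 1486 and 1422 counts to 379 and 411 in 1205Lu-R (log2 fold change −1.88 ± 0.05), and 451Lu-R had 1 count of it in 4 libraries. The small-conductance channel KCNN1 rose in both lines, from 34 and 29 counts to 178 and 158 and from 25 and 39 to 161 and 194. Its relative KCNN3 had 167 and 162 counts in 1205Lu-R before corin, against 154 and 184 after it, which overlap, and 0 and 0 against 9 and 12 in 451Lu-R.

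Of the potassium auxiliary genes, 3 of 5 tested rose and 2 fell in 451Lu-R, with 2 rises and 1 fall among 5 in 1205Lu-R. KCNAB1, a cytosolic subunit of Shaker-type channels, went from 114 and 109 counts to 12 and 14 in 451Lu-R, the only channel gene that fell by 4-fold or more there (log2 fold change −3.07 ± 0.23, edgeR adjusted p = 2.78e-10). Its relative KCNAB2 was the most counted channel gene of 451Lu-R, at 2227 and 1902 counts with DMSO, against 2576 and 2210 with corin, which overlap in counts but, scaled to library totals, gave a small rise of 0.23 ± 0.03 on the log2 scale (0.13 with library size only). KCNIP3, a calcium-binding protein that partners with potassium channels and also represses transcription, fell in both lines, from 159 and 126 counts to 74 and 53 and from 206 and 192 to 111 and 133. The brain BK subunit KCNMB4 rose in both while its pore KCNMA1 fell, from 35 and 24 counts to 133 and 115 and from 17 and 17 to 61 and 89. KCNIP2, a subunit of the transient outward current, rose from 37 and 30 counts to 56 and 54 in 451Lu-R (edgeR adjusted p = 0.00687, DESeq2 0.0977).

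Among the calcium channel pores, all 6 tested rose in 451Lu-R, with 6 rises and 1 fall among 7 in 1205Lu-R. The low-voltage T-type channels CACNA1G, CACNA1H and CACNA1I rose in both lines. CACNA1G went from 15 and 13 counts to 221 and 156 in 451Lu-R (log2 fold change 3.75 ± 0.20) and from 27 and 21 to 423 and 471 in 1205Lu-R (4.21 ± 0.13, edgeR adjusted p = 1.78e-17). CACNA1H went from 232 and 189 counts to 945 and 717 and from 40 and 50 to 220 and 243. CACNA1I was at 0 in both 451Lu-R DMSO libraries and had 57 and 39 counts with corin, at least 15.1-fold higher, and in 1205Lu-R it went from 5 and 10 to 33 and 43. CACNA1C, the L-type channel of heart and smooth muscle, went the other way in 1205Lu-R, from 567 and 527 counts to 271 and 309 (log2 fold change −0.92 ± 0.07).

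Of the calcium channel auxiliary genes, 8 of 10 tested rose in 451Lu-R with no fall, and 1205Lu-R had 3 rises and 2 falls among 8. CACNG4, CACNG5, CACNG7 and CACNG8 encode membrane proteins best known for trafficking AMPA receptors. CACNG4 went from 0 and 0 counts to 148 and 118 in 451Lu-R, at least 41.8-fold higher, and CACNG5, its neighbour on chromosome 17 (GRCh38, both within 66835117 to 67033398), from 0 and 0 to 66 and 55. In 1205Lu-R, 1 count of CACNG4 and none of CACNG5 was read in 4 libraries. CACNG7 went from 0 and 0 counts to 76 and 66 in 451Lu-R, and from 62 and 48 to 115 and 139 in 1205Lu-R (log2 fold change 1.20 ± 0.16). The alpha2delta subunit CACNA2D2 went from 1 and 0 counts to 94 and 69 in 451Lu-R and had 4 and 2 with corin in 1205Lu-R. CACNB4, a cytosolic beta subunit, rose in 1205Lu-R from 8 and 3 counts to 61 and 57, and its 451Lu-R counts of 67 and 65 against 92 and 51 overlapped.

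For 8 channel genes the calls were opposite in the lines, with an interaction adjusted p under 0.05 for each. KCNC4, a voltage-gated potassium pore, fell in 1205Lu-R from 662 and 623 counts to 149 and 169 (log2 fold change −2.02 ± 0.08, edgeR adjusted p = 4.39e-16). It rose slightly in 451Lu-R, from 135 and 117 to 160 and 163 (0.38 ± 0.12, edgeR adjusted p = 0.00996). Its corin levels in the 2 lines were close, at 14.9 ± 1.9 CPM (SD, n = 2) in 451Lu-R and 15.4 ± 0.32 in 1205Lu-R. KCNG1, a modifier subunit, rose in 451Lu-R from 164 and 129 counts to 818 and 621, and its 1205Lu-R counts of 1839 and 1767 against 1512 and 1794 gave a log2 fold change of −0.13 ± 0.04. CACNA2D1, an alpha2delta subunit bound by gabapentin, went from 0 and 0 counts to 46 and 32 in 451Lu-R and from 600 and 566 to 429 and 520 in 1205Lu-R. CACNG8 went from 4 and 1 counts to 24 and 30 in 451Lu-R and from 155 and 146 to 77 and 76 in 1205Lu-R, and CACNA1C rose in 451Lu-R from 16 and 28 counts to 40 and 34. In 451Lu-R CACNA2D1 and CACNG8 passed the filter only through their corin libraries, so a rise was fixed there for both.

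The other 3 fell in 451Lu-R and rose in 1205Lu-R. KCNA2, a Shaker-type axonal channel, went from 204 and 186 counts to 101 and 79 in 451Lu-R and from 67 and 71 to 106 and 120 in 1205Lu-R. KCNN2, a small-conductance channel, went from 252 and 212 counts to 186 and 172 in 451Lu-R and from 17 and 10 to 77 and 84 in 1205Lu-R. KCNG3, a modifier, went from 114 and 113 counts to 90 and 79 and from 61 and 60 to 117 and 148. For 5 of the 8 genes 1 of the calls is weak: in 451Lu-R DESeq2 gave adjusted p of 0.198 for CACNA1C, 0.122 for KCNC4, 0.195 for KCNG3 and 0.107 for KCNN2, and in 1205Lu-R 0.0799 for KCNG1. The KCNG1 fall was −0.05 (adjusted p = 0.184) with library size only and −0.04 (0.283) with the filter passed in every group. Without DMSO replicate 1, CACNA1C in 451Lu-R had a log2 fold change of 0.32 and an adjusted p of 0.428, and without corin replicate 1 or 2 the adjusted p was 0.0945 or 0.0712. In the same line KCNC4 had 0.25 (adjusted p = 0.128) without corin replicate 2, and KCNG3 −0.34 (0.0935) without DMSO replicate 2 and −0.38 (0.0577) without corin replicate 1.

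**Figure D4:**
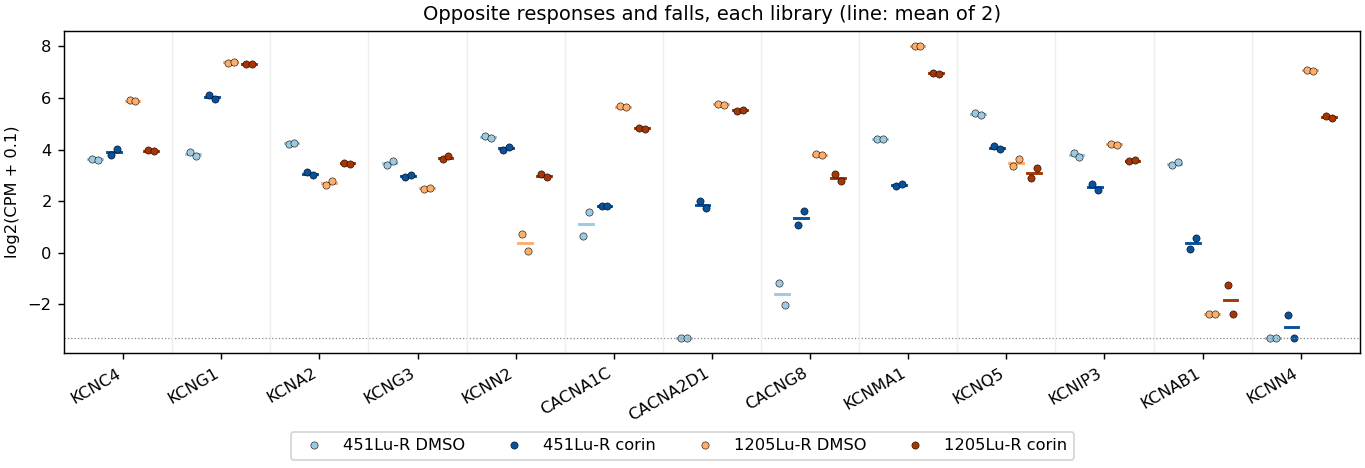
Level of 13 channel genes as log2(CPM + 0.1) in each of the 8 libraries (points) with the mean of the 2 libraries of a group (lines); the dotted line is a count of 0. The first 8 genes were called in opposite directions in the 2 lines, and KCNMA1, KCNQ5 and KCNIP3 fell in both.

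The difference between the lines in the response was tested for 81 channel genes. The response was more upward in 1205Lu-R for 12 and more downward for 21, where 22.6% and 27.1% of all genes tested were. By these counts the channel genes did not exceed the background in either direction. The term could hardly be called for a gene at 0 in every library of a line, however. CACNG5, with 66 and 55 corin counts in 451Lu-R and none in 1205Lu-R, had a term of −8.93 with a standard error of 21020. The shares therefore do not settle whether line differences are more or less common among channel genes.

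**Figure D5:**
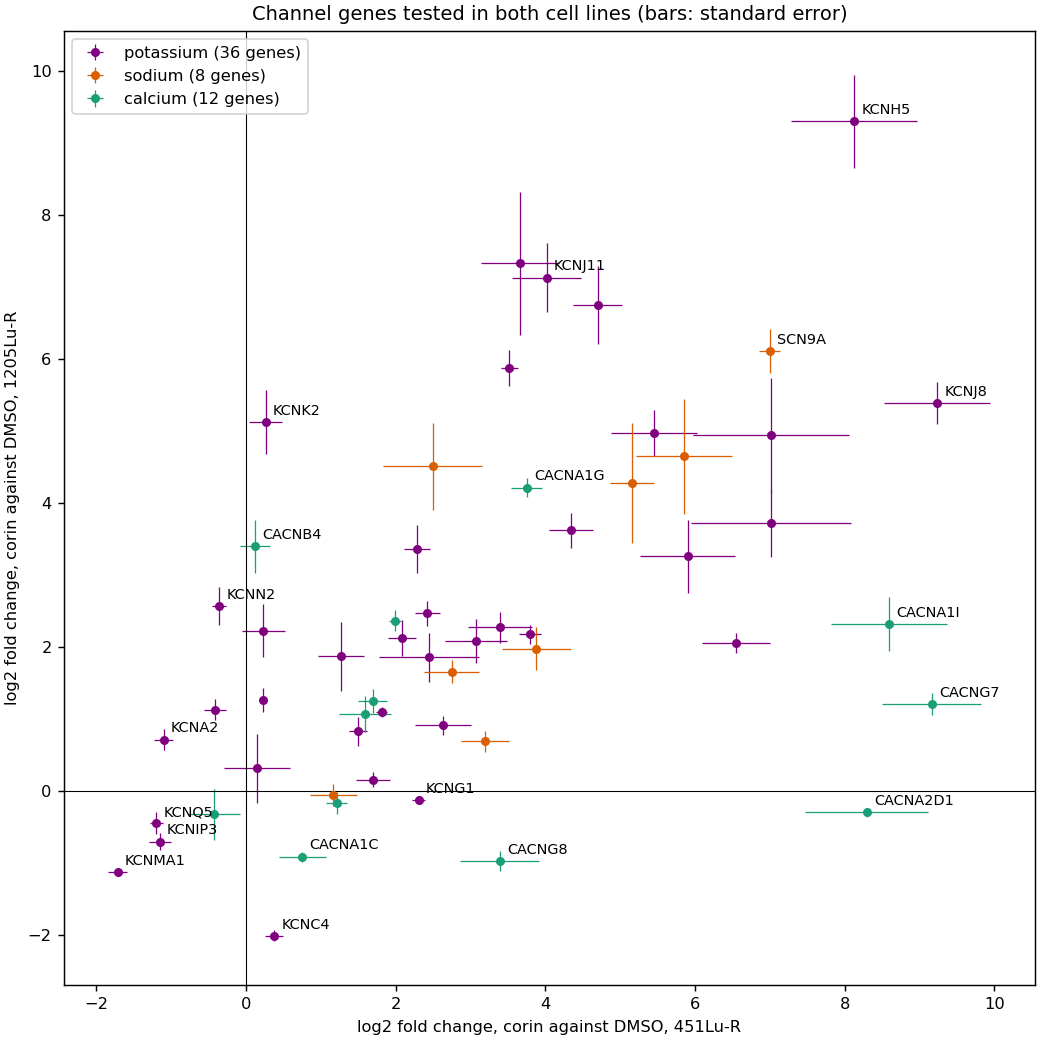
Log2 fold change of corin against DMSO in 451Lu-R (horizontal) and 1205Lu-R (vertical) for the 56 channel genes tested in both lines, with standard errors as bars and colours for potassium, sodium and calcium. Most points lie at upper right, the 3 genes that fell in both lines lie at lower left, and KCNC4, CACNA1C, CACNG8 and CACNA2D1 lie at lower right; genes at 0 with DMSO have fitted values that depend on the prior count.

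With DMSO alone the lines differed in most channel genes that could be tested. Of 49 tested, 27 were higher in 1205Lu-R and 18 lower, where 41.0% and 41.5% of all genes were. At a fold of 4 or more with an adjusted p under 0.001, 19 were higher and 10 lower, against 10.1% and 10.6% of all genes. Of the 49, 14 passed the filter only through 1205Lu-R and 11 only through 451Lu-R, so their direction was fixed. They include 13 of the 19. Among the 23 that passed in both lines, 6 were higher and 3 lower at these thresholds, against 519 and 579 of 11531 such genes. Per kb of exonic length, the highest level in 1205Lu-R with DMSO was that of KCNN4, at 42.9 ± 0.083 CPM per kb (SD, n = 2), followed by KCNG1 at 30.7 ± 0.024 and KCNS3 at 8.78 ± 0.48. KCNMA1 came next at 6.54 ± 0.068, and with the length of its longest transcript it would come before KCNS3, at 21.4 against 11.5. In 451Lu-R with DMSO, KCNAB2 came first at 11.7 ± 0.31 CPM per kb and KCNS3 next at 6.49 ± 0.22. Neighbours in these orders differed by more than their SDs.

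Ordered by fitted fold, which for genes at 0 depends on the prior count, the 3 genes farthest apart each way had at most 1 count per DMSO library in one of the lines. KCNN4, CACNA2D1 and KCNN3 had no count in either 451Lu-R DMSO library and 1486 and 1422, 600 and 566, and 167 and 162 counts in 1205Lu-R. In the other direction, KCNJ10 had 42 and 72 counts in 451Lu-R and none in 1205Lu-R, KCNAB1 had 114 and 109 against 1 and 1, and KCNIP2 had 37 and 30 against 1 and 0. With corin, CACNA2D1 and KCNN3 were read in 451Lu-R and KCNN4 was not, with 1 count in the 2 corin libraries.

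Sequence upstream of the start was looked at in the RefSeq promoter windows (GRCh38.p14, from 250 bases before to 50 after each start), which held 94 of the 131 genes. They are shown for SCN9A, KCNH5 and KCNJ8, which rose from at most 7 counts in both lines, and for KCNK3, which holds a match to the left arm of RE1, the element REST binds. KCNK3, an acid-sensitive 2-pore channel, went from 5 and 0 counts to 16 and 12 in 451Lu-R and from 9 and 11 to 36 and 37 in 1205Lu-R. Each line gives the 250 bases before the start, 5′ to 3′ on the strand of the gene, at chr2:166375945-166376194 (minus), chr14:63045459-63045708 (minus), chr12:21774707-21774956 (minus) and chr2:26692472-26692721 (plus). Capitals mark GC boxes (GGGCGG, or CCGCCC for the opposite strand) and, in KCNK3, the RE1 left arm TTCAGCACC read on the opposite strand, from 31 bases before the start.
SCN9A: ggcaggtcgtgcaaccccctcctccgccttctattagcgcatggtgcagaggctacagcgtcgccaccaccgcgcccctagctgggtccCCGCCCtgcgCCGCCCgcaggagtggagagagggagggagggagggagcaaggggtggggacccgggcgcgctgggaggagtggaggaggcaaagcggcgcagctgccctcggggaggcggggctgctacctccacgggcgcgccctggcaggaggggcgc
KCNH5: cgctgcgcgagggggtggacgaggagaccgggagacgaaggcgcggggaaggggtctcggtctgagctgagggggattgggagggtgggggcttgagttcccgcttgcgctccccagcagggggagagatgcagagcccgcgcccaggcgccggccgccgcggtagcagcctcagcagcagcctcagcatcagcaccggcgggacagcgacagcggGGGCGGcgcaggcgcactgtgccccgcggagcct
KCNJ8: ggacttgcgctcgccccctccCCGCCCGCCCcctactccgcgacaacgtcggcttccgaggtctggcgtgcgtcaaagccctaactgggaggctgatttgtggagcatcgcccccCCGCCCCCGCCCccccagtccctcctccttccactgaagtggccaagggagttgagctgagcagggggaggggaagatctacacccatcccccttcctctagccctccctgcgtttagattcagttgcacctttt
KCNK3: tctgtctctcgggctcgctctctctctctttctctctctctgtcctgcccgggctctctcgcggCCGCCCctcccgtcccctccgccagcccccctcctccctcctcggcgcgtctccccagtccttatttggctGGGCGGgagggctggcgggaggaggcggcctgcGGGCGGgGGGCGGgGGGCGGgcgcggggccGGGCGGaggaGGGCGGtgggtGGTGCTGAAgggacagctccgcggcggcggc

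SCN9A, KCNH5 and KCNJ8 shared GC boxes, and GC made up 74.0%, 74.0% and 64.8% of their 250 bases. Over the 94 windows of 300 bases, on both strands, a GC box was found in 62.8%, against 58.5% of the 15842 protein-coding windows. An E-box of the letters CAGGTG was found in 21.3% against 19.9%, and the AP-1 letters TGACTCA in 3.19% against 3.66%, in KCNJ15, KCNJ16 and SCN1A. The RE1 left arm TTCAGCACC was found in 3 windows (CACNG3, KCNH6 and KCNK3), 3.19% with a 95% exact binomial interval from 0.663 to 9.04, against 0.398%. The right arm GGACAGCGC was found in none, which allows up to 3.85%, against 0.84%. Of the 3 genes with the left arm, KCNK3 rose in both lines, CACNG3 was at 0 in every library, and KCNH6 had at most 7 counts in any library. KCNK3 passed the filter in both lines only through its corin libraries, so it could hardly be called lower. Only exact letters were searched, so near matches were left unmarked. The KCNH5 sequence holds atcagcacc and, after it, ggacagcga, each a letter away from an RE1 arm. How often such near matches occur in other windows was not counted. A match is a description of letters in this window and not a binding site.

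Genes that work with these channels but fall outside the symbol rule were counted beside them. Of 35 such genes (pacemaker channels, the NALCN complex, ankyrins, fibroblast growth factor homologous factors and others), 33 were in the table. In 451Lu-R, 13 of 21 tested rose and 4 fell, with 12 rises and 4 falls among 18 in 1205Lu-R; the medians were 0.82 and 0.62 on the log2 scale. The shares over all genes tested were 41.3% for rises and 38.6% for falls in 451Lu-R, against 40.4% and 37.8% in the other line. The pacemaker channel HCN4 went from 0 and 0 counts to 19 and 16 in 451Lu-R and from 2 and 0 to 26 and 20 in 1205Lu-R. SPTBN4, the spectrin of the axon initial segment, went from 5 and 4 counts to 49 and 47 and from 1 and 2 to 36 and 43. ANK3, the ankyrin that anchors sodium and KCNQ channels there, fell in 451Lu-R from 375 and 311 counts to 142 and 119, and FGF14, a sodium channel partner, from 135 and 106 to 33 and 19. REST itself fell in both lines, from 353 and 363 counts to 253 and 252 and from 605 and 578 to 326 and 377, and the CoREST scaffold relative RCOR2 rose, from 4 and 3 to 156 and 125 and from 15 and 12 to 150 and 149. Of the 13 CoREST and REST genes, 8 rose and 4 fell in 451Lu-R, with 6 rises and 2 falls in 1205Lu-R, where the rises are near the 40.4% of all genes. Their part in the channel results was not tested.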

How the data were processed

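Paired-end reads were trimmed by the authors (trimmomatic), and salmon then gave transcript estimates on GENCODE v32, summed per gene (versions not given in the sources used here); they deposited estimated counts without normalization for 8 of 16 samples. For the other 8, with PLX4032 with or without corin, the deposited tables hold only the authors' DESeq2 comparison (log2 fold changes and adjusted p-values) and were not used.

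The deposited estimated counts were rounded to whole numbers. Names, coordinates and exonic lengths came from GENCODE 44 (34052 of 34228 genes matched). Groups were compared with edgeR 4.0.16 in R 4.3.3 (filterByExpr with a minimum count of 10, TMM, glmQLFit and glmQLFTest, 2-sided, Benjamini-Hochberg over all genes tested), with 2 libraries per group and an interaction term over all 8. The filter cut was 0.957 CPM in 451Lu-R and 0.922 CPM in 1205Lu-R. A group at 0 was set to a floor of 3 counts per library, and groups at 1 to 3 counts were given as ratios with exact binomial intervals. CPM values are scaled to the library total.

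The channel genes and the gene lists were chosen with earlier results of these data known. Genes were named by rule: per class the 3 most counted, per class and line the 2 largest rises and the largest fall, genes from at most 3 to at least 20 counts, opposite calls, and the 3 widest line differences each way. Others named to complete a class or list were chosen after their values were seen. Some genes that the rule names are not reported here. Alternatives were DESeq2 1.42.0, RLE or library size scaling, filters (none, or 1 CPM on average), a replicate block, 1 fit of all libraries, leaving out each library and, added after seeing the data, the filter passed in every group. The pipeline was tested on simulated data. Counts of replicate libraries differed beyond counting noise in every group (chi-square over degrees of freedom, 1.34 to 1.40). Same-numbered libraries did not deviate together, so numbers were not used as pairs.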

Additional observations from a re-analysis of the deposited data

Results flagged for a closer look

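The response to corin differed between the lines for the 26 named channel genes given here, by an interaction term over the 8 libraries (edgeR's quasi-likelihood test, adjusted p under 0.05 for each). Over all channel genes 12 of 81 tested were more upward and 21 more downward, where 22.6% and 27.1% of all genes were. The values are log2 differences, the 1205Lu-R response minus the 451Lu-R response. Among the potassium pores, the response was more upward in 1205Lu-R for KCNA2 (1.77), KCNG3 (1.50) and KCNQ5 (0.71), and more downward for KCNC4 (−2.43), KCNG1 (−2.47), KCNQ3 (−4.52) and KCNS3 (−0.76). Among the calcium-gated channels the difference was 0.54 for KCNMA1, 2.88 for KCNN2 and −6.40 for KCNN3. It was −1.66 for the inward rectifier KCNJ2, and among the 2-pore channels 6.74 for KCNK15, 4.82 for KCNK2 and −1.77 for KCNK5.

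Of the potassium auxiliary genes, KCNAB1 differed by 3.95 and KCNAB2 by 0.99. Of the sodium channel genes, SCN8A differed by −1.26 and SCN4B by −1.13. Of the calcium channel genes, CACNA1C differed by −1.72, CACNA1I by −6.29, CACNA2D1 by −8.61, CACNB3 by −1.42, CACNB4 by 3.23, CACNG4 by −12.40, CACNG7 by −7.97 and CACNG8 by −4.40. CACNA1I, CACNA2D1, CACNG4, CACNG7 and KCNN3 were at 0 with DMSO in 451Lu-R, and KCNK15 in 1205Lu-R, so their sizes depend on the prior count. Leaving out 1 library also moved KCNK2 to 8.93 (without 1205Lu-R DMSO replicate 1), KCNQ3 to −7.68 (without 451Lu-R DMSO replicate 2) and KCNK5 to −2.74 (without 451Lu-R DMSO replicate 2) or −1.15 (without replicate 1). Left out 1 at a time, a library ended the call for CACNG4 (−10.07, adjusted p = 1.0, without 1205Lu-R DMSO replicate 2), KCNK15 (6.67, 0.0504, without 451Lu-R DMSO replicate 2), KCNAB1 (2.96, 0.255, without 1205Lu-R corin replicate 1) and KCNQ5 (0.52, 0.0533, without 1205Lu-R corin replicate 2). SCN4B lost its call with any 1 of 5 libraries left out, at adjusted p from 0.0552 to 0.125, and in DESeq2 (0.101) or with library size only (0.0779). No gene was tested for an outlying library, since each group held 2.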

How the results depend on the processing

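Rises and falls of channel genes were counted again under each alternative, and 163 of 180 counts stayed within 1.5 times the count given. With the filter passed in every group, chosen after seeing the data, rises numbered 21 in 451Lu-R (8 at 4-fold or more) and 21 in 1205Lu-R (9, with 0 falls of 4-fold or more), DMSO levels higher in 1205Lu-R 13 (6 at 4-fold) and lower 8 (3), and interactions 6 upward and 9 downward; fewer genes are tested there. At a fold of 4 or more, falls numbered 1 in each line and genes lower in 1205Lu-R 10. The 1 fall of 4-fold or more in 1205Lu-R, KCNC4, was 0 with library size only, with a 1 CPM mean filter and, over the libraries left out, between 0 (without corin replicate 2) and 1. Leaving out 1 library gave 53 to 63 rises in 451Lu-R and 45 to 48 in 1205Lu-R; a group then holds 1 library, assumed to vary like the other. Same-numbered libraries did not deviate together (r of −0.0056 and −0.0175 over 14432 genes), and a replicate block gave 57 rises and 7 falls in 451Lu-R, against 47 and 9 in 1205Lu-R. Of 1896 values of named genes, 45 lost their call and 6 turned sign, none of which was called: CACNB4 in 451Lu-R at −0.23 without corin replicate 1 (up to 0.38 with another library left out), KCNN3 in 1205Lu-R at −0.01 with no filter, and SCN8A in 1205Lu-R at 0.02 with library size only, 0.03 with the filter passed in every group, and from −0.19 to 0.05 with a library left out. Genes under about 10 counts were mostly not tested; with no filter, 73 rose in 451Lu-R and 52 in 1205Lu-R.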
